A study of Mus musculus with 18 samples.

Results

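The members described here are 8-base sequences (8-mers) in which a cytosine directly precedes GCAA, the C/EBP transcription factors' half-site, on the DNA strand that could carry a modified cytosine. They were taken by sequence alone from a deposited table of 65530 8-mers. An 8-mer was taken if it held CGCAA as written and its reverse complement did not. It was set aside if, on either strand, it shared 7 consecutive bases with the chimera of TGAC and GCAA or with the C/EBP palindrome. This left 240 members, and 15 other 8-mers with CGCAA were set aside. All 240 members lay on at least 1 array probe, as did 65121 of the 8-mers in all.

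Protein binding microarrays, which read by fluorescence how much of a tagged protein is held by each double-stranded probe, were run with 3 mouse bZIP (basic leucine zipper) proteins, CREB1, ATF1 and JUND. Each protein was a DNA-binding domain with short flanks, fused to glutathione S-transferase (GST) and made by cell-free expression, so no full-length protein or cell entered the measurement. The second strand of each probe was synthesized with plain cytosine (C), with 5-methylcytosine (5mC) or with its hydroxylated form 5-hydroxymethylcytosine (5hmC), which gave 9 groups (3 proteins on 3 kinds of DNA) of 2 arrays each. On 5mC and 5hmC DNA the printed strand kept plain cytosine, and the C groups had plain cytosine on both strands. Whether both arrays of a group used separate protein preparations is not stated, so the p-values measure only how far these arrays differ, and that spread may be technical.

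CREB1 and ATF1 are closely related activators that bind the cAMP response element (CRE), a palindrome built from the half-site TGAC, and CREB1 is known for relaying cAMP signals to genes. JUND is a subunit of AP-1. bZIP proteins bind as dimers, and each basic region contacts 1 half-site of the DNA. The C/EBP proteins are bZIP factors of differentiation and metabolism whose palindrome joins GCAA to its own reverse complement. A cytosine before GCAA makes a CpG with the first base of the half-site, and 5mC carries its methyl group where thymine carries one.

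The members with the largest rises of the CREB1 z-score on 5mC DNA are shown first, because the comparison of flanks for CREB1 starts from them. Each is written 5′ to 3′ as on the synthesized strand, with the shared cytosine and half-site in capitals.
Rise 1: ctaCGCAA
Rise 2: aCGCAAta
Rise 3: CGCAAtac
Rise 4: caCGCAAt
Rise 5: taCGCAAt
Rise 6: aCGCAAtc
Rise 7: gCGCAAta
Rise 8: ccaCGCAA
Rise 9: CGCAAtag
Rise 10: ccCGCAAt
The member with the smallest change is shown for contrast.
Smallest change: cccCGCAA
Of the 10 rises, 8 had a T directly after the half-site and 6 had an A directly before the cytosine. They are not independent readings, because overlapping 8-mers lie on the same probes. The 10 members occupied 157 probe places on 113 distinct probes, and the first 5 occupied 82 places on 64 probes.

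The measure was the authors' deposited z-score per 8-mer and array, a linear score with a median near 0 on every array. Its calculation is not stated in the labels or the table. An 8-mer and its reverse complement were scored separately. Scores followed the signal of probes that held the 8-mer on their synthesized strand (rank correlation 0.957 to 0.975 on the 18 arrays) more than that of probes with it on the printed strand (-0.0804 to 0.507). The 8-mer as written was therefore read as the strand with the modified base. There the shared run CGCAA has 2 cytosines, and the opposite strand, with plain cytosine in every group, has 1 within it. Members lay on 4 to 23 probes (median 17), and only CCCCGCAA lay on fewer than 10.

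Median probe signal ranged from 519 to 8014 over the 18 arrays, and 1.55 to 14.0 times the median local background. Over the members, replicate arrays correlated with Pearson's r from 0.850 to 0.975 for CREB1 and ATF1 (240 members, which share arrays and probes). The value was 0.535 for JUND on C, 0.817 on 5mC and 0.0532 on 5hmC, so the JUND 5hmC arrays stand apart. On CREB1 5mC replicate 2 a probe could read at most 16.2 times the array's median signal, against 78.5 times on replicate 1. At least 1 saturated probe was held by 54 members on replicate 2 and by 19 on replicate 1. The scores of the strongest members on replicate 2 are therefore bounded by the scanner's ceiling. Saturation also reached the ATF1 5mC arrays, where 34 and 32 members held a saturated probe, at most 6 and 7 per member. A saturated probe with CTACGCAA read 17.8 and 17.4 times the array median there. How far this lowered the ATF1 5mC scores was not tested.

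CREB1 scored higher on 5mC than on C DNA for nearly the whole set. The median member z-score was 0.754 and 0.911 on the C arrays and 12.5 and 8.07 on the 5mC arrays. In limma (Benjamini-Hochberg adjusted p under 0.05 over all 8-mers), 221 of 240 members rose and none fell, where 2.25% of all 8-mers rose and 6.21% fell. The median change was 9.09 over the members and -0.0631 over all 8-mers. Every one of the 240 changes lay above 0, against 46.6% of all 8-mers, and both 5mC arrays lay above both C arrays for 232 members, against 21.8% of all 8-mers. Members made up 7 of the 10, 39 of the 50 and 71 of the 100 largest called rises among all 8-mers. The count of called members stayed between 186 and 233 when any 1 array was left out.

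CTACGCAA had the largest rise and the highest CREB1 5mC score of all 65121 8-mers. Its z-scores were 14.7 and 25.9 on C, 128 and 60.1 on 5mC, and 17.6 and 26.2 on 5hmC. The 5mC arrays lay above the others, while the C and 5hmC arrays overlapped. The 5mC change was 74.0 (SE 16.5, adjusted p = 0.0051). On 5mC replicate 2, 10 of its 16 probes were saturated, so most probe signals behind its score of 60.1 were at the scanner's ceiling. On replicate 1, 3 of its probes were saturated.

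ACGCAATA combined an A before the cytosine with TA after the half-site. Its z-scores were 11.4 and 18.97 on C, 126 and 49.98 on 5mC, and 54.9 and 74.2 on 5hmC. Here both modified groups lay above C, and the 5mC and 5hmC arrays overlapped each other. The 5mC change of 72.7 passed the test (SE 18.3, adjusted p = 0.013), and the 5hmC change of 49.3 did not (adjusted p = 0.12). TACGCAAT, which has 7 of the same 8 bases shifted by 1, read 18.3 and 29.9 on C, 108 and 53.2 on 5mC and 53.3 and 79.9 on 5hmC. Its 5mC change was 56.3 (SE 16.9, adjusted p = 0.0426), a call lost in 13 of 26 alternatives. TACGCAAT was the highest member on C and 5hmC DNA, yet it ranked only 373 among all 8-mers for CREB1 on C, against 2 on 5hmC.

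Members that began near 0 rose as well. CGCAATAG read 0.151 and 0.0225 on C and 51.7 and 27.6 on 5mC, a change of 39.5 (SE 4.48, adjusted p = 3.92e-06). CCCGCAAT read -0.225 and 0.0225 on C and 50.6 and 24.9 on 5mC, a change of 37.9 (SE 5.10, adjusted p = 2.92e-05). In probe signal, the CCCGCAAT probes went from 0.90 and 0.98 times the array median on C to 18.4 and 7.04 times on 5mC. These members thus had no signal above a typical probe on C DNA. GCGCAATA, with G before the cytosine, rose from 1.74 and 2.24 to 63.5 and 27.7 (change 43.6, SE 6.71, adjusted p = 0.000136).

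The remaining named rises were similar in kind. CGCAATAC read 5.64 and 8.50 on C and 99.6 and 44.2 on 5mC (change 64.8, SE 12.7, adjusted p = 0.0016). CACGCAAT read 7.64 and 12.9 on C and 99.4 and 49.2 on 5mC (change 64.0, SE 13.7, adjusted p = 0.00348). ACGCAATC changed by 51.8 (SE 10.0, adjusted p = 0.00146) and CCACGCAA by 40.4 (SE 6.04, adjusted p = 9.82e-05). In all of these the lower 5mC array exceeded the higher C array, which the rule for naming them required.

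Of the 19 members without a call, 13 carried A after the half-site. CCCCGCAA, the member with 4 probes, read 2.33 and -0.773 on C and 2.25 and -0.455 on 5mC (change 0.118, SE 1.18, adjusted p = 0.98). TTACGCAA and CGCAACGT also had no call, though from high C scores. TTACGCAA read 13.8 and 24.4 on C and 66.5 and 28.4 on 5mC (change 28.3, SE 9.63, adjusted p = 0.0809). CGCAACGT, whose last 4 bases are the centre of the CRE, read 20.6 and 20.3 on C and 43.9 and 23.1 on 5mC (change 13.1, SE 5.26, adjusted p = 0.159).

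The base directly before the cytosine went with both the starting level and the size of the rise. The 40 members with A there had median CREB1 z-scores of 5.28 and 5.68 on the C arrays and 33.9 and 19.6 on the 5mC arrays, with a median change of 20.9 and 35 called. With G there the median change was 9.52 and all 40 were called. With T it was 8.04 (44 of 48 called), with C it was 6.38 (44 of 48 called), and for the 64 members that begin with the cytosine it was 8.83 (58 called). On C DNA the C-preceded members read 0.09 and 0.02 and the T-preceded members 0.33 and 0.53, so of these groups only the A-preceded one had a median well above 0 without modification. Single members outside it did as well, such as CGCAACGT.

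The second base before the cytosine split the A-preceded members further. The 8 members with TA before the cytosine had a median change of 25.1 from a median C level of 15.1. The 8 with CA before it changed by 21.5 from 5.43. The 8 with AA before it changed by 5.54 from 2.35, with 6 called. An A before the cytosine gives AC, the last bases of TGAC, and 8-mers with GA before it hold 7 bases of the chimera and had been set aside.

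The base directly after the half-site went with the size of the rise and less with the starting level. With T there, all 46 members were called, the median z-scores were 1.03 and 1.81 on C and 30.0 and 15.9 on 5mC, and the median change was 21.2. With C the median change was 12.6 (45 of 46 called), with G it was 6.4 (45 of 46) and with A it was 3.51 (33 of 46). The 56 members that end with the half-site had a median change of 8.31 (52 called). Among pairs of bases after the half-site, TA had the highest median change (35.8, 8 of 8 called), followed by TC (22.3), TG (19.9) and TT (17.1), and AA the lowest (2.76, 5 of 8 called). A T here extends GCAA to GCAAT, the longer form of the C/EBP half-site.

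Both flanks together gave the widest contrast. The 7 members with A before and T after had a median change of 51.8, from a median level of 10.2 on C to 61.9 on 5mC. The 7 with A before and A after changed by 12.7, with 4 called. The 8 with C before and T after changed by 17.4, all called, from a C level of 0.391. The 8 with C before and A after changed by 2.63, with 5 called. Of all pairs of members that differ by 1 flanking base, ACGCAAAA and ACGCAATA differed most. ACGCAAAA read 2.90 and 2.43 on C and 12.3 and 4.51 on 5mC, a change of 5.75 (SE 1.66, adjusted p = 0.0331) beside the 72.7 of ACGCAATA. These group values are descriptions over overlapping 8-mers and were not tested against each other.

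The number of cytosines went with smaller differences than the flanks. Members with 2, 3 and 4 cytosines on the modified strand had median CREB1 5mC changes of 7.37 (96 members), 10.5 (104 members) and 10.5 (36 members), and the 4 with 5 cytosines changed by 4.28. The 23 members with a second CpG changed by 12.4 at the median, and 22 were called. By the number of bases before the cytosine, 0 to 3, the median changes were 8.83, 10.4, 10.2 and 8.31.

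The rise belonged to the orientation with CGCAA on the modified strand. The reverse complements of the members, read from other probes, had median CREB1 z-scores of 0.526 and 0.893 on C and 0.615 and 0.699 on 5mC, with 7 called higher and 37 lower. The difference between each member and its reverse complement was formed within each array and fitted over 32225 pairs. This difference grew on 5mC for 202 members and shrank for none, with a median growth of 9.41, where 5.08% of all pairs changed in either direction. On log2 probe signals 125 members grew, and in a fit of the CREB1 arrays alone 128. For CTACGCAA the reverse complement TTGCGTAG fell from 8.59 and 14.8 on C to 1.34 and 2.46 on 5mC (adjusted p = 3.05e-05), and the strand difference grew by 83.8 (adjusted p = 0.000624). For ACGCAATA the reverse complement TATTGCGT fell from 14.8 and 18.2 to 1.53 and 1.14 (adjusted p = 1.3e-07). These sites thus scored in both orientations on C DNA and almost only with CGCAA on the modified strand on 5mC DNA.

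TACGCAAT is an exception in the test but not in its CREB1 values. Its reverse complement ATTGCGTA fell from 14.2 and 28.5 on C to 2.94 and 1.80 on 5mC (adjusted p = 4.98e-05). The strand difference was 4.06 and 1.43 on C and 105 and 51.4 on 5mC, a growth of 75.3 with an adjusted p of 0.90. Its SE in the fit was 165, against 14.3 from its own residuals alone, because the fit's trend of spread on mean assigned it a very large prior spread.

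The cytosine was next compared with the other 3 bases at the same position. Replacing it by T leaves GCAA and its own cytosine intact, so these counterparts still carried 5mC or 5hmC within the half-site. For the 48 members with T before the cytosine, it also makes TTGCAA, which holds GCAA on both strands. On 5mC DNA the CREB1 median z-score of the 240 T counterparts was 6.63 and 3.50 on the 2 arrays, that of the A counterparts 3.23 and 1.07, and that of the G counterparts 1.37 and 0.944. The members lay above all of these with 12.5 and 8.07. On C DNA the 4 sets had medians between -0.149 and 0.911. Of the T counterparts 192 rose on 5mC, of the A counterparts 74 and of the G counterparts 45, where 2.25% of all 8-mers rose.

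The excess of cytosine over thymine was tested within arrays over 128835 pairs of 8-mers that differ by C or T at 1 position. On 5mC it grew for 122 members and shrank for 2, with a median of 4.19, where it grew for 4.81% and shrank for 3.18% of all pairs. The count rests on the linear score: on log2 probe signals the excess grew for 18 members and shrank for 1, and with normexp correction it grew for 20 and shrank for 2. ACGCAATA had the largest growth, 55.7 (SE 12.5, adjusted p = 0.00951). Its T counterpart ATGCAATA read 1.11 and 1.47 on C and 23.9 and 12.8 on 5mC, so it rose from a lower level and to a lower one. CTACGCAA exceeded CTATGCAA by 53.3 more on 5mC than on C (SE 10.0, adjusted p = 0.00247). The 2 members with a smaller rise than their T counterpart were CCCCGCAA, by -6.66 (adjusted p = 0.0115), and CGCAAAAA, by -3.41 (adjusted p = 0.0248). TCGCAATA rose by 22.2 beside a T counterpart, TTGCAATA, that went from 0.08 and -0.184 to 32.3 and 10.2, and the 2 rises were not told apart (difference 0.862, adjusted p = 0.873).

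With 5hmC the order of cytosine and thymine turned for CREB1. The median member z-score was 2.08 and 2.38 on the 5hmC arrays, between the C and the 5mC values, and that of the T counterparts was 4.02 and 3.50. Of the T counterparts 134 rose against C, and of the members 1 did, where 1.12% of all 8-mers rose and 6.78% fell. These counts use a spread that includes the 5mC arrays. Leaving out either CREB1 5mC array raised the count of members, as given below. Nonetheless 208 members had a change above 0, and both 5hmC arrays lay above both C arrays for 150 members (23.6% of all 8-mers). The excess of cytosine over thymine shrank for 35 members and grew for 1, with a median of -2.08, where 4.54% of all pairs shrank and 3.24% grew. With quantile normalization 9 shrank and 3 grew, and the number that shrank was 16 without CREB1 5hmC replicate 1 and 61 without either CREB1 5mC array. Of the 35 members, 12 have T before the cytosine, so that their T counterparts hold GCAA on both strands. TCGCAATA, one of the members with T before the cytosine, had a large difference. It read 0.437 and 1.43 on C and 7.42 and 9.16 on 5hmC, and its T counterpart reached 23.6 and 26.0 (difference of the changes -17.5, SE 1.64, adjusted p = 2.96e-06). The 1 member with a growing excess was ACGCGCAA (7.00, SE 1.52, adjusted p = 0.00788), whose own CREB1 score changed by -2.71 on 5hmC (adjusted p = 0.313).

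The member called for CREB1 on 5hmC was TCGCAACA, which read 1.62 and 1.19 on C and 5.56 and 6.21 on 5hmC (change 4.48, SE 1.33, adjusted p = 0.0413), and the call was lost in 16 of 26 alternatives. Its arrays varied little, and larger changes at other members had wider errors. The largest 5hmC changes were 49.3 at ACGCAATA and 42.5 at TACGCAAT (adjusted p = 0.156), and all 7 members with A before and T after had a change above 0, with a median of 25.8. The largest drop was at CGCAACGT, from 20.6 and 20.3 on C to 7.44 and 12.0 on 5hmC (adjusted p = 0.283). The strand difference grew on 5hmC for 8 of 240 members and shrank for none, a smaller share than the 4.25% of all pairs that changed. Among the 8 were ACGCAATA (64.1, adjusted p = 0.0156) and ACGCAATC (35.3, adjusted p = 0.00809). The count was 0 with the CREB1 arrays alone and 0 without CREB1 C replicate 2. Without CREB1 5mC replicate 1, the strand difference grew for 59 members and shrank for 1. Without CREB1 5mC replicate 1, 30 members rose on 5hmC and 2 fell, and without replicate 2, 22 rose and 1 fell. Those arrays enter the spread that all groups share in the fit.

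Set directly against 5mC, with which it shares the 5mC arrays, 5hmC gave lower CREB1 scores. Of the members 175 were lower and none higher, with a median difference of -7.91, where 0.766% of all 8-mers were lower and 0.186% higher. Both 5hmC arrays lay below both 5mC arrays for 225 members (23.7% of all 8-mers). CTACGCAA differed by -72.4 (SE 16.5, adjusted p = 0.0384) and GCGCAATA by -38.6 (SE 6.71, adjusted p = 0.00533). For TACGCAAT the difference was -13.8 (SE 16.9, adjusted p = 0.805) and its 5mC and 5hmC arrays overlapped. The count of lower members was 78 without CREB1 5hmC replicate 1, 105 without replicate 2, 113 on log2 probe signals and 81 in a fit of the CREB1 arrays alone.

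ATF1 scores rose on 5mC too, and in the deposited scores the median rise was smaller than that of CREB1. Its median member z-score was 0.863 and 0.717 on C and 5.39 and 5.93 on 5mC. Of the 240 members 81 rose and none fell, where 1.19% of all 8-mers rose and 2.06% fell, and the median change was 4.37. The gap to CREB1 moved with the scaling and with single arrays. With quantile normalization the median change was 7.94 for ATF1 and 8.87 for CREB1, and the median of the CREB1 minus ATF1 difference went from 4.39 to 1.17. It was 1.74 without CREB1 5mC replicate 1 and 7.15 without replicate 2. The ATF1 change was above 0 for 239 members, with CCCCGCAA the exception at -0.915, and both 5mC arrays lay above both C arrays for 230 (27.4% of all 8-mers). In a fit of the ATF1 arrays alone 185 members were called, and the share of all 8-mers called in that fit is not given here. The count of 81 went to 162 without CREB1 5mC replicate 1 and 154 without replicate 2, to 14 without either ATF1 C array, and to 25 and 5 without ATF1 5mC replicates 1 and 2.

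CCCGCAAT had the largest called ATF1 rise. It read 1.73 and 0.376 on C and 21.3 and 26.2 on 5mC (change 22.7, SE 5.10, adjusted p = 0.0195). CCGCAATG read 0.617 and 0.315 on C and 11.3 and 12.5 on 5mC (change 11.4, SE 1.43, adjusted p = 0.000778). TCCGCAAT changed by 12.1 (adjusted p = 0.0367), TCGCAATA by 11.4 (adjusted p = 0.0415) and CGCAATGA by 11.1 (adjusted p = 0.00854). The calls of TCCGCAAT and TCGCAATA were lost in 11 and 12 of 26 alternatives. All 5 of these named ATF1 rises have a T after the half-site. The members with the highest ATF1 5mC scores had no call, among them TACGCAAT, at 11.5 and 8.22 on C and 33.6 and 37.0 on 5mC (change 25.5, SE 16.9, adjusted p = 0.484). Its ATF1 arrays did not overlap, and its SE comes from the spread shared with the CREB1 arrays.

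The flanks ordered the ATF1 changes much as those of CREB1. With T after the half-site the median change was 9.93 (14 of 46 called), with C 6.29 (24 called), with G 3.25 (16 called) and with A 1.83 (6 called). More members were called with C (28 of 48) than with A before the cytosine (2 of 40). The A-preceded members nonetheless had the larger median change (5.99 against 3.89). The calls use a spread shared with the CREB1 arrays, so they are not read as a preference for C. The part of that spread in these counts was not tested. Over the 240 members the CREB1 and ATF1 changes on 5mC correlated with r = 0.888 and Spearman's rho = 0.859, a description over points that share probes and base composition. The CREB1 change was the larger for 233 members. Saturated probes on the 5mC arrays of either protein were left in this comparison.

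The ATF1 strand difference grew on 5mC for 66 members and shrank for none, with a median growth of 5.05, where 2.03% of all pairs changed. The count was 10 on log2 probe signals and 174 with the ATF1 arrays alone, and lay between 8 (without ATF1 5mC replicate 2) and 155 (without either CREB1 5mC array) when 1 array was left out. CCGCAATG gained 11.6 over its reverse complement (adjusted p = 6.69e-05). The excess over thymine grew for 26 members, where it grew for 2.21% and shrank for 0.939% of all pairs, and it shrank for no member. That count of 26 was 0 on log2 probe signals, and with quantile normalization 94 grew and 2 shrank. On 5hmC no member was called for ATF1 by limma, where 0.0998% of all 8-mers rose and 2.08% fell. At an unadjusted p under 0.05 there was 1 member, against 9179 of all 65121 8-mers. The median ATF1 member score there was 1.34 and 1.23, and 167 members had a change above 0. No strand difference was called for ATF1 on 5hmC (0.236% of all pairs called). At an unadjusted p under 0.05 there were 7 members and 2994 of all 32225 pairs. No excess over thymine was called either (1.9% of all pairs called). At an unadjusted p under 0.05 there were 28 members and 16757 of all 128835 pairs. Against 5mC, which uses the same 5mC arrays, 39 members were lower on 5hmC and none higher, where 0.591% of all 8-mers were lower and 0.134% higher. That count was 168 in a fit of the ATF1 arrays alone and 2 without ATF1 5mC replicate 2.

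A direct test of the difference between the CREB1 and the ATF1 effect of 5mC called 5 members, all larger for CREB1, where 0.02% of all 8-mers were called in that direction and 0.252% in the other. They were CGCAAGAC, CGCAACAC together with CGCAACAG, and CCGCAACG with TCGCAACA. CGCAACAG read 0.141 and 0.622 on C and 19.7 and 15.1 on 5mC for CREB1, and 0.478 and 0.356 on C and 7.30 and 5.76 on 5mC for ATF1. The difference of the changes was 10.9 (SE 1.78, adjusted p = 0.00942). CGCAACAC differed by 16.2 (SE 3.40, adjusted p = 0.0479), from 32.8 and 24.0 for CREB1 against 11.4 and 10.9 for ATF1 on 5mC. None of the 5 has the T after the half-site that marks the largest rises, and 4 have a C there. The calls depend on the spread as well as on the size of the difference. ACGCAATA, with a T there, changed by 72.7 for CREB1 and was not among the 5. No ATF1 change on 5mC exceeded 22.3 among members with 1 base before the cytosine, as in ACGCAATA. The 5 calls are thus not read as a preference for a flank. The count was 137 without CREB1 5mC replicate 2 and 0 without either ATF1 C array or ATF1 5mC replicate 2. It was also 0 with quantile normalization, on log2 probe signals with plain or normexp background correction, and with the CREB1 and ATF1 arrays alone. With array weights it was 19 and without a trend 10. For 5hmC no member was called (0.215% of all 8-mers called in either direction). At an unadjusted p under 0.05 there was 1 member, against 3530 of all 65121 8-mers.

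JUND z-scores of the members were low in value, but some members were among the higher-scoring 8-mers on 5mC DNA. The median member z-score was 0.327 and 0.401 on C, 1.65 and 1.39 on 5mC, and 0.506 and 0.511 on 5hmC. On the 5mC arrays 13.3% and 11.25% of members had a z-score of at least 4, against 0.978% and 0.981% of all 8-mers. The highest of all 8-mers read 27.0 and 22.2 there. On 5mC 203 members had a change above 0 (51.9% of all 8-mers) and both 5mC arrays lay above both C arrays for 147 (25.3% of all 8-mers). Only TCCGCAAG was called (0.799% of all 8-mers rose and 0.244% fell), at -0.757 and -1.30 on C and 1.94 and 1.38 on 5mC (change 2.69, SE 0.631, adjusted p = 0.0463). The call was lost in 18 of 26 alternatives. Of the 240 members 26 had an unadjusted p under 0.05 in limma, against 10844 of all 65121 8-mers in either direction, so this count does not set the members apart. TACGCAAT had the highest JUND 5mC score of the members, 9.27 and 5.96, against 2.14 and 0.272 on C. By its mean JUND 5mC score it ranked 33 among all 65121 8-mers. Its change of 6.41 was not called (adjusted p = 0.892). On 5hmC no member was called by limma, and 0% of all 8-mers were. At an unadjusted p under 0.05 there were 2 members and 6123 of all 65121 8-mers. Without JUND 5hmC replicate 1 the count was 2, and without replicate 2 it was 0.

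At the level of single probes, CGCAA lay on the synthesized strand of 1193 of the 40330 probes, and once only on 1182 of these. The following probes show the range; each is the 35 variable bases of the synthesized strand, 5′ to 3′, with CGCAA in capitals. Among the probes with CTACGCAA, the first has the lowest CREB1 signal on both 5mC arrays, and the second is saturated on both, where signals have no order. The third, chosen after its values were seen, holds 4 of the 10 named rises at once.
Lowest: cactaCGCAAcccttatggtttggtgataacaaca
Saturated: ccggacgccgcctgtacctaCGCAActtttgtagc
Most named rises: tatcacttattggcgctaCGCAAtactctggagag
The lowest read 17.1 and 6.47 times the array median on the CREB1 5mC arrays, from 1.59 and 2.19 times on C. The second was at the ceiling of both 5mC arrays (73.7 and 15.7 times the median) and read 13.2 and 12.6 times on C. The third was likewise saturated on both (73.1 and 15.2 times) and read 46.2 and 31.1 times on 5hmC.

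The capitals start at base 6 in the lowest of these probes and at bases 21 and 19 in the others. The same held over all probes with CGCAA. Those with CGCAA starting at bases 1 to 6 had a median CREB1 5mC signal of 1.81 and 1.497 times the array median (213 probes). The median was 3.01 and 1.86 at starts 7 to 12, 6.49 and 3.18 at 13 to 18, 10.1 and 4.53 at 19 to 24 (241 probes), and 5.14 and 2.91 at 25 to 31. On C DNA it stayed between 1.09 and 1.39 at all of these starts. Members that by the array's design lay at other places within their probes may have been read at other strengths, and the part of this in the differences between members was not tested.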

How the data were processed

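For 18 arrays the deposited probe files hold, per the file headers, linear intensity values: the median signal of a probe and its median background. The authors also deposited a table with a score (z-score) per 8-mer and array. Scanner, settings and the calculation of the score are not given in the sources used. Per the labels' protocols, primer extension with C, 5mC or 5hmC made the probes double-stranded. The 409 8-mers without a probe were not fitted, and 6 null scores stayed missing.

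The scores were fitted with limma 3.58.1 in R 4.3.3 (1 mean per group, 9 residual degrees of freedom, empirical Bayes with a mean-variance trend, two-sided, Benjamini-Hochberg adjustment over all rows at 0.05). The spread of an 8-mer was shared by all groups. The same fit was run on differences, within arrays, between reverse complements and between 8-mers that differ by C or T. The fit was run on simulated data in which an 8-mer had the same spread in all groups. That run cannot show how the fit behaves where groups differ in spread. Fold values are probe signals minus background over the array median, and a probe at 65500 or more was read as saturated. Other steps used Python 3.11.15, numpy 2.4.6 and pandas 2.3.3.

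The members, groupings and lists were chosen with earlier results of these data known. Named members were those with the largest called rises without overlap of the arrays (10 for CREB1 5mC, up to 5 for other comparisons with C; no fall was called), the 3 highest in each group and the pair that differed most by 1 flanking base. Of these, 22 different members were named by rule; not all are printed. Others named were chosen after their values were seen. The alternatives were a replicate block, the arrays of 1 protein alone, no trend, array weights, quantile normalization, log2 probe signals with plain or normexp background correction (offset 50), a minimum of 10 probes, and leaving out each array. Same-numbered arrays were not paired by the labels: over 36 pairs of groups their deviations correlated from -0.163 to 0.636, above 0.1 in 5.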

Additional observations from a re-analysis of the deposited data

Results flagged for a closer look

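On the deposited scores, the effect of 5mC differed between CREB1 and ATF1 at 5 members by limma's test of the difference itself. No member was called with quantile normalization, on log2 probe signals with plain or normexp correction, or with the CREB1 and ATF1 arrays alone. The CREB1 change exceeded the ATF1 change by 17.3 at CGCAAGAC (SE 3.53, adjusted p = 0.0378) and by 16.2 at CGCAACAC (SE 3.40, adjusted p = 0.0479). It exceeded it by 10.9 at CGCAACAG (SE 1.78, adjusted p = 0.00942), by 9.49 at CCGCAACG (SE 1.91, adjusted p = 0.0356) and by 9.45 at TCGCAACA (SE 1.88, adjusted p = 0.0325). Scores of both proteins were higher on 5mC than on C at these members. CGCAAGAC read 1.86 and 2.45 on C and 29.9 and 17.0 on 5mC for CREB1 and 1.43 and 2.33 on C and 5.76 and 5.91 on 5mC for ATF1. At CCGCAACG the CREB1 scores went from 1.27 and 2.23 to 20.8 and 16.3, and the ATF1 scores from 0.549 and 0.391 to 6.72 and 8.86. With 2 arrays in each group, no single array could be tested as standing apart from its group.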

How the results depend on the processing

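No named result, and no count with calls in the main fit, changed its prevailing direction in any alternative. For ATF1 5hmC, with 0 calls in the main fit, the alternatives differed in direction. The ATF1 arrays alone gave 1 lower member, and quantile normalization gave 3 higher ones. The CREB1 count on 5mC (221) lay between 190 and 226 in the 8 alternatives other than leaving out an array. Counts that moved by over 1.5 times are given with their main value in brackets, and the cause was not tested. Shares over all 8-mers or pairs are given for the main fit only. Whether a count of members moved more than that share in an alternative is therefore not shown.

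With the replicate number as a block, JUND 5mC went to 0 (1) and the CREB1 minus ATF1 effect of 5mC to 3 (5), and no other count of calls moved past that limit; the numbers do not pair the arrays, and TACGCAAT for CREB1 on 5mC then had an adjusted p of 0.0511. With the arrays of the protein alone, the counts were 2 (1) for CREB1 5hmC, 185 (81) for ATF1 5mC, 1 (0) for ATF1 5hmC, 0 (1) for JUND 5mC, 81 (175) for CREB1 5hmC against 5mC, 168 (39) for ATF1 5hmC against 5mC and 0 (5) for CREB1 minus ATF1 on 5mC. For the strand difference they were 128 (202) and 0 (8) for CREB1 on 5mC and 5hmC and 174 (66) and 11 (0) for ATF1, and for cytosine minus thymine 82 (124), 17 (36), 84 (26) and 13 (0) in the same order. Without a trend, CREB1 5hmC was 2, JUND 5mC 2 and CREB1 minus ATF1 10. With array weights, ATF1 5mC was 157, JUND 5mC 0, ATF1 5hmC against 5mC 67, CREB1 minus ATF1 19, the ATF1 5mC strand difference 140 and its cytosine minus thymine 58. With at least 10 probes, CREB1 5hmC was 3, JUND 5mC 2, CREB1 minus ATF1 9 and ATF1 5hmC cytosine minus thymine 1.

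With quantile normalization the counts were 4 for CREB1 5hmC, 171 for ATF1 5mC, 3 for ATF1 5hmC, 8 for JUND 5mC, 143 for ATF1 5hmC against 5mC and 0 for CREB1 minus ATF1. The strand difference gave 21 for CREB1 5hmC, 159 for ATF1 5mC and 11 for ATF1 5hmC, and cytosine minus thymine 12, 96 and 8. With log2 probe signals, CREB1 5hmC was 3, JUND 5mC 0, the 5hmC against 5mC counts 113 and 22, CREB1 minus ATF1 0, the 5mC strand differences 125 and 10, and cytosine minus thymine 19 for CREB1 5mC, 0 for ATF1 5mC and 3 for ATF1 5hmC. With normexp these were 23 for CREB1 5hmC, 194 for ATF1 5mC, 54 for JUND 5mC, 179 for ATF1 5hmC against 5mC and 0 for CREB1 minus ATF1. Its strand differences were 29 for CREB1 5hmC, 162 for ATF1 5mC and 6 for ATF1 5hmC, and cytosine minus thymine 22 for CREB1 5mC, 13 for ATF1 5mC and 8 for ATF1 5hmC.

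Leaving out each array gave ranges of 186 to 233 for CREB1 5mC, 0 to 32 for CREB1 5hmC, 5 to 162 for ATF1 5mC, 0 to 7 for JUND 5mC, 0 to 2 for JUND 5hmC, 78 to 208 for CREB1 5hmC against 5mC, 2 to 135 for ATF1 5hmC against 5mC and 0 to 137 for CREB1 minus ATF1 on 5mC. The strand differences ranged from 161 to 208, 0 to 60, 8 to 155 and 0 to 2, and cytosine minus thymine from 90 to 136, 17 to 67, 3 to 67 and 0 to 3. Without a CREB1 5mC array, ATF1 5hmC against 5mC was 135 or 126, the CREB1 5hmC strand difference 60 or 59, the ATF1 5mC one 155 in both cases, and cytosine minus thymine 67 or 65 for CREB1 5hmC and 67 or 66 for ATF1 5mC. Without an ATF1 5mC array, ATF1 5hmC against 5mC was 16 or 2, and without a JUND 5hmC array 60 or 61. The call of TACGCAAT for CREB1 on 5mC was lost in 13 of 26 alternatives, that of TCCGCAAG for JUND in 18, that of TCGCAACA for CREB1 on 5hmC in 16, and those of TCCGCAAT and TCGCAATA for ATF1 in 11 and 12.

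The number of arrays, the shared spread and saturation limit what can be read. Each group had 2 arrays, and the fit used a spread shared by all groups. A change that was small beside that shared spread was not called, even where the arrays of its own groups did not overlap. TACGCAAT for ATF1 on 5mC was such a case. The highest CREB1 5mC scores on replicate 2 are bounded. Probes were saturated on the ATF1 5mC arrays as well, and the part of this in the comparison of CREB1 with ATF1 was not tested.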
